A study of Mus musculus with 25 samples.

Results

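The endothelial and pericyte genes of mouse hippocampus followed here were chosen by symbol: 8 endothelial genes (Cldn5, Pecam1, Pcdh12, Flt1, Kdr, Aplnr, Slco1a4 and Abcb1a) and 2 pericyte genes (Pdgfrb and Rgs5). They are 10 of the 24421 gene symbols in the count files, and all 10 were among the 15912 genes with enough counts to be tested. The choice was made with earlier results of these data known. Hippocampal RNA was sequenced from wild-type mice and from mice heterozygous for loss of Scn1a (Scn1a+/-), the sodium channel gene of Dravet syndrome, on a resistant and a susceptible background. The resistant background was 129S6/SvEvTac (129S6) and the susceptible one [129S6/SvEvTac x C57BL/6]F1 (F1). Each library was made from pooled hippocampi of 12 to 16 mice, except for the seizure libraries, which pooled 3 to 4 mice.

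At postnatal day 14 (P14) the groups were wild-type 129S6 with 2 libraries, Scn1a+/- 129S6 with 3, wild-type F1 with 3 and Scn1a+/- F1 with 3. At postnatal day 24 (P24) they were wild-type 129S6, Scn1a+/- 129S6 and wild-type F1 with 3 libraries each, and Scn1a+/- F1 without seizures with 2. The remaining group was Scn1a+/- F1 mice at P24 that had seizures, with 3 libraries, and no wild-type group with seizures and no seizure group in 129S6 was analysed here. The labels do not give the time between a seizure and dissection. The 25 libraries held 7436442 to 25520050 counts, with a median of 14765960. In the P24 129S6 libraries, Scn1a went against the labels: it stood at 135 to 144 CPM (counts scaled to a common library size) in those labelled Scn1a+/- and at 109 to 111 CPM in those labelled wild type. The age and strain comparisons average both genotypes with equal weight and so keep the same value if those labels are exchanged. The 3 seizure libraries also differed more among themselves than any other replicates, with chi-square per degree of freedom over genes of 18.4 to 40.3 against 2.42 to 8.59 within the other groups.

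Brain capillaries are tubes of endothelial cells wrapped by pericytes within a shared basement membrane. Endothelial cells form the blood-brain barrier: tight junctions seal the gaps between them, and transporters and efflux pumps in their membranes select what passes. In the young brain vessels sprout under the growth factor VEGF, and sprouting gives way to a stable network as the brain matures. In bulk tissue, fewer cells of a type and less RNA per cell cannot be told apart, and this holds for every value below.

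The promoters of Kdr and Flt1 are shown because these VEGF receptors parted with age, and those of Cldn5 and Slco1a4 because these barrier genes did the same. Each is the 250 bases before the start position that the RefSeq promoter table uses for the gene, 5′ to 3′ on the gene's strand, on GRCm38.p6, the reference release behind the mm10 build of the files. Capitals mark GGAAG or its reverse complement CTTCC, the core that ETS factors bind, a family that includes regulators of endothelial genes. Kdr lies on chromosome 5 (minus strand, 75932827 to 75979072), and the window is chr5:75978456-75978705. Flt1 lies on chromosome 5 (minus strand, 147561604 to 147726438), and the window is chr5:147726012-147726261. Cldn5 lies on chromosome 16 (plus strand, 18776847 to 18778262), and the window is chr16:18776597-18776846. Slco1a4 lies on chromosome 6 (minus strand, 141805438 to 141856284), and the window is chr6:141856221-141856470. The start used lies inside the annotated gene span for Kdr, Flt1 and Slco1a4, so that the Kdr and Flt1 windows lie within the span and the Slco1a4 window lies partly within it.
Kdr: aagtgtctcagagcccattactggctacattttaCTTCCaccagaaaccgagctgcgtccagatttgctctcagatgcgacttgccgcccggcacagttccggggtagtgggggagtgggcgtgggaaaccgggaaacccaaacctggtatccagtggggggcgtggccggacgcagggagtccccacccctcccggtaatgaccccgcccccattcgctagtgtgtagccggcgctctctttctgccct
Flt1: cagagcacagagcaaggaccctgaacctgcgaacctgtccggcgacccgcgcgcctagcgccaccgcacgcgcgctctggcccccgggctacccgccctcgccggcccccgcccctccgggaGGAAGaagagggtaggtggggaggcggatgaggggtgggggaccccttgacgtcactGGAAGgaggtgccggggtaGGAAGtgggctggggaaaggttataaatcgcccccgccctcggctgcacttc
Cldn5: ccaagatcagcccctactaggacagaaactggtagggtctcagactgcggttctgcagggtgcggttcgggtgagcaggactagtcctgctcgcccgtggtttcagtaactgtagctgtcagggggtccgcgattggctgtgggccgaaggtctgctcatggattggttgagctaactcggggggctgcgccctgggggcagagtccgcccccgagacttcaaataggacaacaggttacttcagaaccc
Slco1a4: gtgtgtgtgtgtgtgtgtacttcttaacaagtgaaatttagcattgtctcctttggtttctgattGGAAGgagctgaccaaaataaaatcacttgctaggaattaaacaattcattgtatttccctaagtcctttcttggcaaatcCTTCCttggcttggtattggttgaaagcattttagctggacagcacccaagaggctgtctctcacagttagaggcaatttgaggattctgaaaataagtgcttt
The Kdr window held 1 GGAAG match and the Flt1 window 3. The Slco1a4 window held 2 and the Cldn5 window 0. Of the 10 genes, promoters of 6 were examined (Abcb1a, Cldn5, Flt1, Kdr, Rgs5 and Slco1a4). Those of 4 were not (Aplnr, Pecam1, Pcdh12 and Pdgfrb), so the shares below cover only the 6. GGAAG on either strand was present in 4 of the 6 and in 64.1% of all 32851 promoters of the same length, so the share among these genes was near the background. The GC content was 70.4% for Flt1, 61.6% for Kdr, 59.6% for Cldn5 and 39.2% for Slco1a4, against a median of 52.4% over all promoters. On both strands, ACAAT, bound by SOX factors, was in 2 of the 6 against 27.7% of all promoters, and CTTTGA, a core of the TCF/LEF sites that Wnt signalling uses, in 2 of the 6 against 13.8%. A match is a description of the letters in the window and not a site.

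Between P14 and P24 the vessel genes moved in opposite directions. In 129S6, 7 of the 10 fell and 3 rose. The genes that fell were the apelin receptor Aplnr, the cadherin-like Pcdh12, the VEGF receptor Kdr, the tight junction gene Cldn5, the pericyte genes Rgs5 and Pdgfrb, and Pecam1. The genes that rose were the transporter Slco1a4, the efflux pump Abcb1a and the VEGF receptor Flt1. Of all tested genes, 34.3% were called in this comparison (17.3% higher and 17.1% lower; edgeR's quasi-likelihood test, Benjamini-Hochberg adjusted p under 0.05). In F1, 6 fell and 3 rose, with Pdgfrb not called, against 38.4% of all tested genes. The median log2 fold change of the 10 genes was -0.65 in 129S6 and -0.62 in F1, beside 0.01 and 0 over all tested genes. Libraries of the ages did not overlap for 7 of the 10 genes in 129S6 and 8 in F1, against 24.4% and 24.9% of all tested genes. Nothing in the labels says whether pools came from separate litters or days, so p-values measure the spread between pools.

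**Figure D1:**
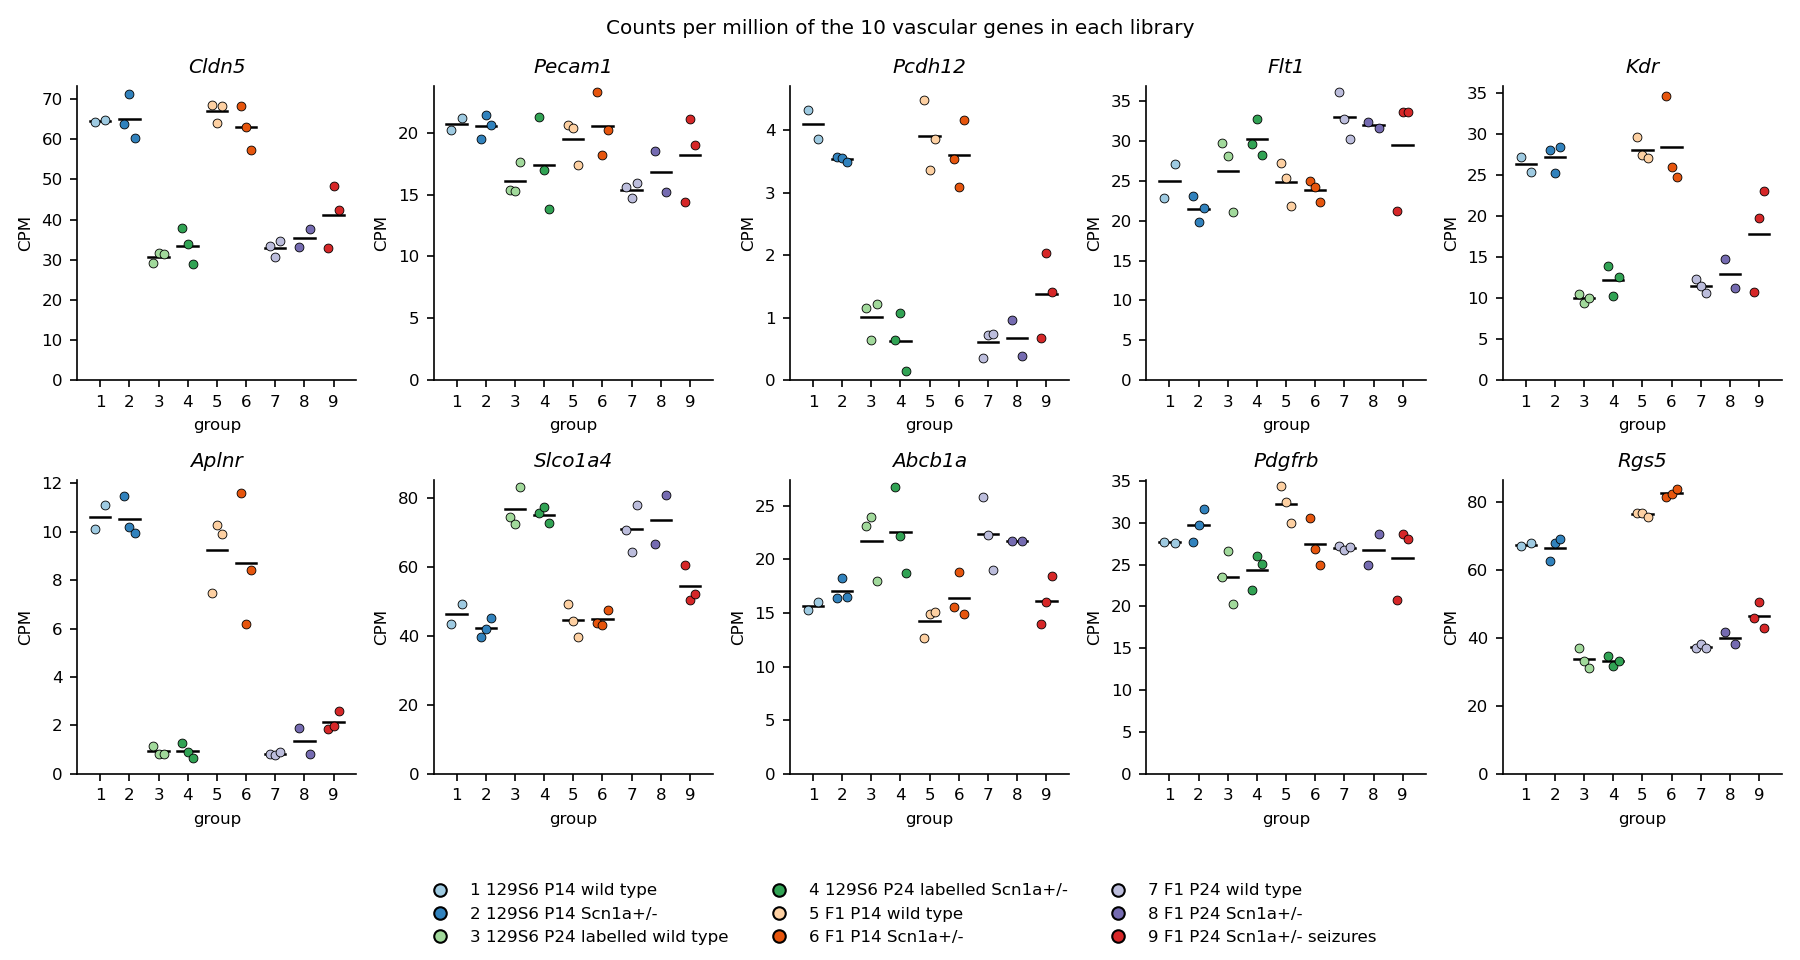
CPM of each of the 10 genes (one panel per gene, linear axis) in every library, arranged by group; each point is 1 library and each bar the group mean. Aplnr, Kdr, Cldn5 and Rgs5 sit higher in every P14 library than in every P24 library, seizure libraries included, while Slco1a4 sits lower at P14.

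Aplnr, the receptor for apelin that is found on sprouting endothelium and veins, changed most. In 129S6 its level ran from 9.94 CPM through a median of 10.2 to 11.5 over 5 P14 libraries, and from 0.665 through 0.876 to 1.27 over 6 P24 libraries. In F1 it ran from 6.19 through 9.16 to 11.6 over 6 P14 libraries, and from 0.8 through 0.833 to 1.91 over 5 P24 libraries. The ages did not overlap in either strain. The log2 fold change was -3.49 ± 0.19 (SE) in 129S6 (edgeR adjusted p = 1.08e-15) and -3.12 ± 0.19 in F1 (edgeR adjusted p = 1.33e-14).

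Its ligand gene Apln, expressed by tip cells and also by neurons, fell as well. The change was -1.16 ± 0.07 in 129S6 (edgeR adjusted p = 1.73e-14) and -1.20 ± 0.07 in F1 (edgeR adjusted p = 1.14e-14). In wild-type F1 mice Apln stood at 41.5 ± 1.63 CPM (SD, n = 3) at P14 and 18.8 ± 1.39 (SD, n = 3) at P24.

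Kdr encodes the main signalling receptor for VEGF. Over 5 P14 libraries of 129S6 it ran from 25.2 CPM through 27.2 to 28.4, and over 6 P24 libraries from 9.37 through 10.4 to 13.9. In F1 it ran from 24.7 through 27.3 to 34.6 at P14 and from 10.6 through 11.5 to 14.7 at P24. The ages did not overlap in either strain, and Kdr fell by 1.28 ± 0.13 on the log2 scale in 129S6 (edgeR adjusted p = 1.76e-09) and by 1.23 ± 0.13 in F1 (edgeR adjusted p = 4.43e-09).

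Flt1 encodes the other VEGF receptor of these cells, which binds VEGF tightly and, in its soluble form, withholds it from Kdr. It moved the other way. In F1 it ran from 21.9 CPM through 24.6 to 27.3 at P14 and from 30.2 through 32.4 to 36.1 at P24, with no overlap. Flt1 rose there by 0.42 ± 0.10 on the log2 scale (edgeR adjusted p = 0.00115). In 129S6 the libraries overlapped, 19.8 to 27.1 CPM at P14 and 21.1 to 32.8 at P24, and the change was 0.29 ± 0.10 (edgeR adjusted p = 0.0243). That call was lost when any 1 of 5 libraries was left out (edgeR adjusted p of 0.0666 to 0.159): P24 Scn1a+/- replicate 2, P24 wild-type replicates 1 and 2, P14 Scn1a+/- replicate 2 and P14 wild-type replicate 1, as labelled.

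The ratio of Kdr to Flt1 counts within a library was chosen for display after the values were seen. In 129S6 it ran from 0.935 through 1.22 to 1.31 at P14 and from 0.31 through 0.4 to 0.476 at P24. In F1 the ratio ran from 1.07 through 1.1 to 1.38 and then from 0.34 through 0.352 to 0.455. No P24 library reached the lowest P14 ratio. The ratio differed on the log2 scale by -1.59 ± 0.14 in 129S6 and -1.66 ± 0.10 (SE) in F1. This ratio and those of Slco1a4 to Cldn5 and Rgs5 to Pdgfrb pair genes seen to move apart, so they are given as descriptions with no test.

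Of the other tested genes of the VEGF and apelin pathway, 4 of 11 were called lower and 1 higher in 129S6, and 6 lower and 0 higher in F1. Vegfa, the ligand itself, made by astrocytes and neurons, fell by 0.44 ± 0.09 in 129S6 (edgeR adjusted p = 0.000335) and by 0.47 ± 0.09 in F1 (edgeR adjusted p = 0.000119). Nos3, the endothelial nitric oxide synthase, and Flt4, the receptor for VEGF-C, fell in 129S6 by 0.57 ± 0.11 (edgeR adjusted p = 0.000155) and 0.65 ± 0.17 (edgeR adjusted p = 0.00275). In F1, Vegfc fell by 0.75 ± 0.19 (edgeR adjusted p = 0.00177) and the co-receptor Nrp1 by 0.24 ± 0.07 (edgeR adjusted p = 0.00804).

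Pcdh12, a protocadherin of endothelial junctions, was the least abundant of the 10 per kilobase of exon in wild-type F1 at both ages. It ran from 3.49 CPM through 3.57 to 4.33 at P14 in 129S6 and from 0.148 through 0.855 to 1.22 at P24. For F1 it ran from 3.09 through 3.7 to 4.49 and then from 0.356 through 0.715 to 0.953. The ages did not overlap, and it fell by 2.32 ± 0.28 on the log2 scale in 129S6 (edgeR adjusted p = 5.94e-08) and changed by -2.60 ± 0.29 in F1 (edgeR adjusted p = 1.44e-08).

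Pecam1, an adhesion molecule found over the whole endothelium, changed far less. In 129S6 it ran from 19.5 CPM through 20.6 to 21.4 at P14 and from 13.8 through 16.2 to 21.3 at P24, and in F1 from 17.4 through 20.3 to 23.3 and then from 14.7 through 15.6 to 18.5. Libraries of the ages overlapped in both strains. The log2 change was -0.31 ± 0.10 in 129S6 (edgeR adjusted p = 0.0142) and -0.32 ± 0.10 in F1 (edgeR adjusted p = 0.0112). Each call was lost when certain single libraries were left out: in 129S6, P24 Scn1a+/- replicate 3 (edgeR adjusted p = 0.0558) or P14 wild-type replicate 2 (0.053), and in F1, P24 Scn1a+/- replicate 2 (0.111) or P14 Scn1a+/- replicate 1 (0.0502).

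Cldn5 encodes claudin-5, the dominant tight junction protein of brain endothelium. It ran from 60.3 CPM through 64.4 to 71.2 at P14 in 129S6 and from 29 through 31.6 to 37.8 at P24. Among F1 libraries it ran from 57.4 through 66.2 to 68.6 and then from 30.6 through 33.4 to 37.6. Every P14 library was above every P24 library. Cldn5 fell by 1.01 ± 0.08 on the log2 scale in 129S6 (edgeR adjusted p = 4.13e-12), to 0.495 of its P14 level, and by 0.93 ± 0.08 in F1 (edgeR adjusted p = 4.01e-11).

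The barrier's transport genes among the 10 rose. Slco1a4, an organic anion transporter, ran from 39.7 CPM through 43.5 to 49.4 at P14 in 129S6 and from 72.6 through 75 to 83.1 at P24. The F1 libraries ran from 39.7 through 44.1 to 49.4 and then from 64.4 through 70.7 to 80.8. The ages did not overlap, and Slco1a4 rose by 0.77 ± 0.07 on the log2 scale in 129S6 (edgeR adjusted p = 1.37e-10) and by 0.70 ± 0.07 in F1 (edgeR adjusted p = 9.38e-10). Its relatives Slco1a1, Slco1a5 and Slco1a6 were listed at no more than 2, 12 and 3 counts in any library.

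Abcb1a encodes P-glycoprotein, the pump that returns many drugs to the blood. In 129S6 it ran from 15.3 CPM through 16.4 to 18.3 at P14 and from 18 through 22.7 to 26.7 at P24, with an overlap between 18 and 18.3. F1 libraries ran from 12.7 through 15 to 18.8 and then from 19 through 21.7 to 25.8, with no overlap. It rose by 0.44 ± 0.10 in 129S6 (edgeR adjusted p = 0.000696) and by 0.53 ± 0.10 in F1 (edgeR adjusted p = 7.91e-05). Abcb1a has a near copy, Abcb1b, with which it could share reads, and which was looked up after the values were seen. Abcb1b had 28 to 147 counts per library, rose by 0.78 ± 0.15 in 129S6 (edgeR adjusted p = 0.000142) and was at 0.29 ± 0.15 in F1 (edgeR adjusted p = 0.13).

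Within a library the ratio of Slco1a4 to Cldn5 counts ran from 0.589 through 0.675 to 0.762 at P14 in 129S6 and from 2 through 2.4 to 2.65 at P24. In F1 the ratio ran from 0.581 through 0.688 to 0.829 and then from 2.01 through 2.11 to 2.24. The ages differed on the log2 scale by 1.81 ± 0.09 in 129S6 and 1.63 ± 0.07 in F1, in a ratio chosen after the values were seen. No P24 library of either strain reached down to the highest P14 ratio.

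Other genes of the barrier were called in both directions. Of 15 other tested junction genes, 7 were called lower and 0 higher in 129S6, and 7 lower and 2 higher in F1. The junction gene Esam fell by 0.72 ± 0.08 in 129S6 (edgeR adjusted p = 4.4e-08) and by 0.57 ± 0.09 in F1 (edgeR adjusted p = 2.22e-06). Mfsd2a, a lipid transporter that limits vesicle traffic across endothelium, fell by 0.56 ± 0.07 in 129S6 (edgeR adjusted p = 8.75e-08) and by 0.56 ± 0.07 in F1 (edgeR adjusted p = 1.39e-07). Of 21 other tested transporters, 12 were called lower and 2 higher in 129S6, and 13 lower and 2 higher in F1. Slc16a1, the monocarboxylate transporter that carries lactate and ketone bodies, fell by 1.09 ± 0.06 in 129S6 (edgeR adjusted p = 2.32e-15) and by 1.37 ± 0.06 in F1 (edgeR adjusted p = 2.07e-17). Atp10a, a phospholipid flippase, rose by 0.78 ± 0.09 in F1 (edgeR adjusted p = 5.87e-08). The median of the transporter list was -0.22 in 129S6 and -0.25 in F1.

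Rgs5 and Pdgfrb both mark pericytes. Pdgfrb encodes the receptor for PDGF-B by which endothelium recruits pericytes, and Rgs5 encodes a regulator of G protein signalling. Rgs5 ran from 62.5 CPM through 67.8 to 69 at P14 in 129S6 and from 31.1 through 33.2 to 37.1 at P24. In F1 libraries it ran from 75.5 through 79.1 to 83.8 and then from 37 through 38.1 to 41.6. The ages did not overlap, and Rgs5 fell by 1.00 ± 0.05 on the log2 scale in 129S6 (edgeR adjusted p = 1.36e-15) and by 1.04 ± 0.05 in F1 (edgeR adjusted p = 4.28e-16).

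Pdgfrb ran from 27.6 CPM through 27.7 to 31.6 at P14 in 129S6 and from 20.3 through 24.3 to 26.6 at P24, without overlap. In F1 the level ran from 24.9 through 30.2 to 34.4 and then from 24.9 through 27.1 to 28.6, with overlap. Its log2 change was -0.25 ± 0.08 in 129S6 (edgeR adjusted p = 0.0163) and -0.14 ± 0.08 in F1 (edgeR adjusted p = 0.173). The ratio of Rgs5 to Pdgfrb counts went from 2.18 to 2.46 at P14 down to 1.22 to 1.58 at P24 in 129S6, and from 2.23 to 3.36 down to 1.34 to 1.67 in F1.

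**Figure D2:**
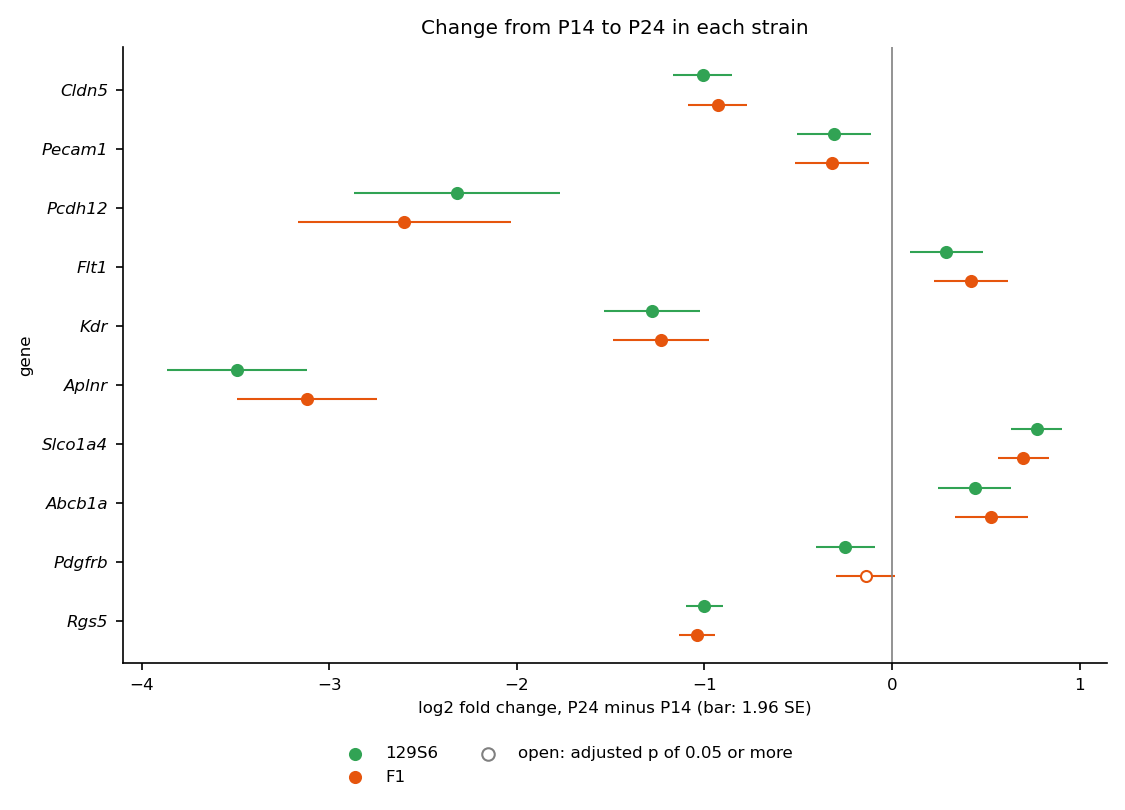
Log2 fold change from P14 to P24 of each gene in 129S6 (green) and F1 (orange), with bars for the approximate 95% interval; filled points have an edgeR adjusted p under 0.05. The strains lie close together for each gene, from Aplnr at -3.49 and -3.12 to Slco1a4 at 0.77 and 0.70, and Pdgfrb in F1 is the single open point.

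Of 22 other tested pericyte genes, 9 were called lower and 1 higher in 129S6, and 10 lower and 2 higher in F1. Kcnj8, a subunit of the ATP-sensitive potassium channel, fell by 0.79 ± 0.15 in 129S6 (edgeR adjusted p = 7.86e-05) and by 0.71 ± 0.15 in F1 (edgeR adjusted p = 0.000212). Its partner Abcc9 fell by 0.80 ± 0.12 in F1 (edgeR adjusted p = 2.38e-06). Tbx18, a transcription factor of mural cells, fell by 0.94 ± 0.15 in 129S6 (edgeR adjusted p = 6.85e-06) and by 1 ± 0.16 in F1 (edgeR adjusted p = 5.44e-06). Of 20 other angiopoietin, PDGF and TGF-beta signalling genes, 10 were called lower and 1 higher in 129S6, and 11 lower and 1 higher in F1. Angpt2, the angiopoietin that loosens vessels, fell by 0.94 ± 0.19 in 129S6 (edgeR adjusted p = 0.000264) and by 1.43 ± 0.21 in F1 (edgeR adjusted p = 1.84e-06).

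More widely, 21 of 31 other endothelial identity genes were called lower and 1 higher in 129S6, and 20 lower and 1 higher in F1. The list's median was -0.44 in 129S6 and -0.34 in F1. Cd93, an endothelial surface glycoprotein, fell by 1.57 ± 0.14 in 129S6 (edgeR adjusted p = 1.37e-10) and by 1.33 ± 0.14 in F1 (edgeR adjusted p = 5.84e-09). Eng, a co-receptor for TGF-beta and BMP ligands, fell by 0.64 ± 0.08 and 0.60 ± 0.08 (edgeR adjusted p = 4.21e-08 and 1.23e-07). Of 16 other tested tip cell genes, 8 were called lower and 2 higher in 129S6, and 9 lower and 3 higher in F1. Dll4, the Notch ligand of tip cells and arteries, fell by 1.23 ± 0.13 in 129S6 (edgeR adjusted p = 8e-09) and by 0.74 ± 0.13 in F1 (edgeR adjusted p = 3.53e-05). Of 20 basement membrane genes, 12 were called lower and 1 higher in 129S6, and 9 lower and 4 higher in F1, with medians of -0.30 and -0.14. Nid1, which links laminin to collagen IV, fell by 1.18 ± 0.10 in 129S6 (edgeR adjusted p = 2.31e-11) and by 1.2 ± 0.1 in F1 (edgeR adjusted p = 2.86e-11). The lists share some genes.

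Transcripts of other cells moved with age as well. All 12 cell cycle genes fell in 129S6, with a median of -1.47, and all 10 oligodendrocyte genes rose, with a median of 1.33. Summed over the list, oligodendrocyte genes went from 6170 to 6930 CPM at P14 to 12800 to 14200 CPM at P24 in 129S6. Leptomeningeal and fibroblast markers went from 467 to 513 CPM to 319 to 350 CPM in 129S6, with 6 of 15 called lower and 0 higher. Perivascular macrophage markers went from 39.4 to 45.1 CPM to 23.7 to 27.4 CPM, with 6 of 7 called lower. Choroid plexus markers stood at 1000 to 1560 CPM at P14 and 1040 to 1620 CPM at P24. Of 3 tested blood cell markers, 2 were called lower and 0 higher: Alas2, at -0.79 ± 0.13 (edgeR adjusted p = 1.07e-05), and Slc4a1, at -1.2 ± 0.43 (edgeR adjusted p = 0.0307). The sum of the 3 went from 11.9 to 16.2 CPM at P14 to 7.3 to 9.02 CPM at P24 in 129S6. On the same list, 4 globin genes were listed at 0 in all 25 libraries, and the reason was not tested. The part of these transcripts in the vessel genes' changes was not tested.

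**Figure D3:**
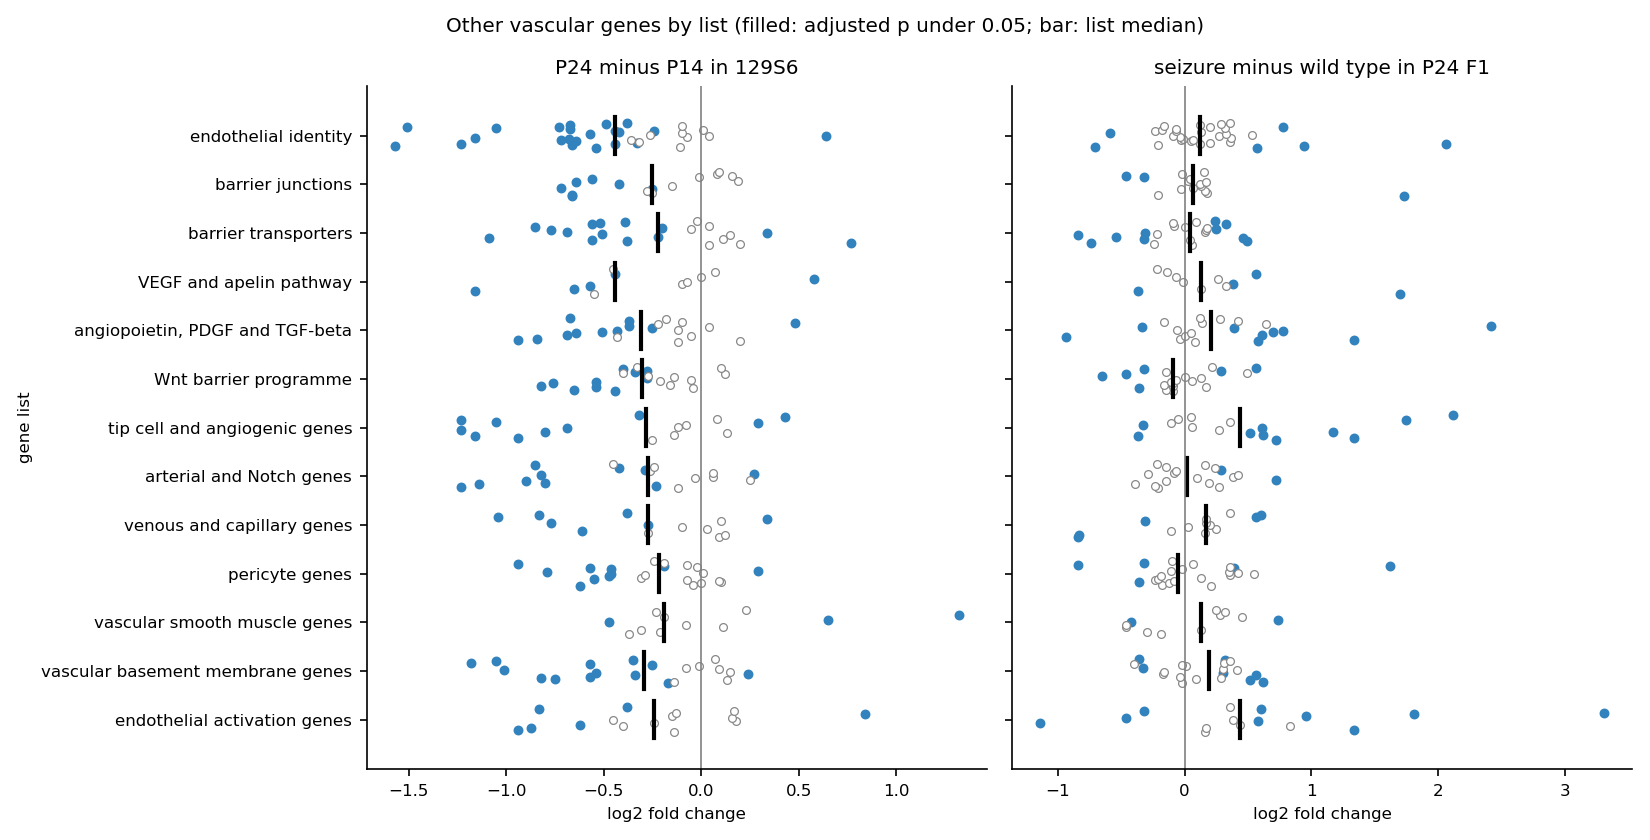
Log2 fold changes of the tested genes of each vascular list (the 10 genes left out) from P14 to P24 in 129S6 (left) and for seizure minus wild type in P24 F1 (right); filled points have an edgeR adjusted p under 0.05 and black bars are list medians. Every list shown has a median below 0 with age, down to -0.44 for endothelial identity. The tip cell and endothelial activation lists each have a median of 0.44 in seizure minus wild type.

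The age change did not differ detectably between strains for any of the 10 genes. By edgeR's test of the difference itself, 0 were called, 0 had an unadjusted p under 0.05, and DESeq2 also called 0. Of all tested genes, 0.00628% (1 gene) were called and 8.14% had an unadjusted p under 0.05. The differences, F1 minus 129S6, ran from -0.29 for Pcdh12 (approximate 95% interval -1.13 to 0.56) to 0.37 for Aplnr (-0.22 to 0.95), with a smallest edgeR adjusted p of 0.787. The intervals were narrower for Cldn5 (-0.13 to 0.30), Rgs5 (-0.19 to 0.11) and Slco1a4 (-0.27 to 0.11).

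Between strains at one age, only Rgs5 was called among the 10. It was higher in F1 by 0.24 ± 0.05 on the log2 scale at P14 (edgeR adjusted p = 0.00376), where 3.7% of all tested genes were called (2.04% higher and 1.66% lower). The strains did not overlap there, which held for 4.48% of all tested genes. At P24 it was higher by 0.20 ± 0.06 (edgeR adjusted p = 0.0258), where 6.33% were called (3.46% higher and 2.87% lower). The P24 libraries overlapped, and the call was lost without F1 Scn1a+/- replicate 1 (edgeR adjusted p = 0.0713), without the 129S6 library labelled Scn1a+/- replicate 2 (0.0555) or without the one labelled wild-type replicate 3 (0.0729).

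The Scn1a genotype alone was compared in mice without seizures at each age in each strain. In all 4 comparisons, edgeR called 0 of the 10 genes and 0% of all tested genes, and DESeq2 called 0 of the 10. An unadjusted p under 0.05 was seen for 1 gene in P14 F1 and for 0 in the other 3. The shares over all tested genes were 5.59% in P24 F1, 2.96% in P24 129S6 as labelled, 4.55% in P14 F1 and 2.46% in P14 129S6. The gene in P14 F1 was Pdgfrb, at 34.4, 32.5 and 29.9 CPM in wild type and 30.5, 26.9 and 24.9 CPM with 1 disrupted allele, a log2 difference of -0.23 ± 0.11 (edgeR adjusted p = 0.994). In P24 F1 the differences ran from -0.05 for Flt1 to 0.60 for Aplnr. The approximate 95% interval was wide for Aplnr (-0.12 to 1.32) and Pcdh12 (-1.04 to 1.12). Narrower intervals were those of Cldn5 (-0.12 to 0.34) and Slco1a4 (-0.13 to 0.25). In P24 129S6, between the libraries as labelled, the differences ran from -0.60 for Pcdh12 to 0.30 for Kdr, and would change sign if the labels were exchanged.

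After seizures, the vessel genes again moved in both directions. Against wild-type P24 F1, 5 of the 10 were higher in the seizure libraries (Aplnr, Pcdh12, Kdr, Cldn5 and Rgs5) and 2 were lower (Slco1a4 and Abcb1a). Pecam1, Flt1 and Pdgfrb were not called. Of all tested genes, 22.5% (3579 genes) were called in the same fit of all libraries (12.4% higher and 10.1% lower). With only the libraries of the contrast in the fit, 3 of the 10 were called (Aplnr, Rgs5 and Slco1a4), and calls over all genes went down to 1615. Groups did not overlap for 4 of the 10, against 31.4% of all tested genes. The median log2 fold change was 0.27 over the 10 genes and 0.01 over all tested genes. The comparison differs from the genotype comparison by seizures, but the smaller pools go with the seizure group, so pool size and seizures cannot be told apart. The fit shares its estimate of the spread over all groups, while the seizure libraries varied more than the others. The p-values of the seizure comparisons may therefore be too small. For genes outside the 10, single values were not checked with only the libraries of the contrast.

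Aplnr stood at 1.84, 1.98 and 2.58 CPM in the seizure libraries, at 0.801, 0.8 and 0.916 in wild type and at 1.91 and 0.833 in Scn1a+/- mice without seizures. Every seizure library was above every wild-type library, and 1 of the 2 Scn1a+/- libraries lay within the seizure range. The log2 difference from wild type was 1.34 ± 0.28 (edgeR adjusted p = 0.00049). From Scn1a+/- it was 0.74 ± 0.32 and not called (edgeR adjusted p = 0.128).

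Its ligand gene Apln did not move with it: it fell by 0.37 ± 0.10 against wild type (edgeR adjusted p = 0.00457), from 18.8 ± 1.39 to 14.5 ± 2.02 CPM (SD, n = 3 each). Apela, the receptor's second ligand, rose by 1.70 ± 0.49 (edgeR adjusted p = 0.0112), from 0.22 ± 0.0428 to 0.734 ± 0.112 CPM. Apela levels were near the floor in both groups, so depth limits this difference.

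Kdr stood at 10.7, 19.7 and 23 CPM in the seizure libraries, at 12.3, 11.5 and 10.6 in wild type and at 14.7 and 11.2 in Scn1a+/- mice. Seizure replicates 2 and 3 were above all 5 other libraries, and replicate 1 lay within the wild-type range. The log2 difference from wild type was 0.63 ± 0.17 (edgeR adjusted p = 0.00526), and it was 0.39 and not called without seizure replicate 3 (edgeR adjusted p = 0.063). From Scn1a+/- it was 0.47 ± 0.20 (edgeR adjusted p = 0.1), and 0.73 and called without seizure replicate 1 (edgeR adjusted p = 0.000421).

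Flt1 stood at 21.2, 33.6 and 33.7 CPM in the seizure libraries and at 36.1, 32.8 and 30.2 in wild type. Seizure replicate 1 was the lowest, and the others lay within the wild-type range. The log2 difference was -0.17 ± 0.12 (edgeR adjusted p = 0.37). The ratio of Kdr to Flt1 was 0.505 to 0.682 in the seizure libraries, 0.34 to 0.352 in wild type and 0.352 and 0.455 in Scn1a+/-. The seizure libraries did not overlap either group, with a log2 difference of 0.76 ± 0.13 from wild type.

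Vegfa rose by 0.56 ± 0.12 against wild type (edgeR adjusted p = 0.000671) and by 0.46 ± 0.14 against Scn1a+/- (edgeR adjusted p = 0.019). Its level was 103 to 194 CPM in the seizure libraries, 89.9 to 100 in wild type and 102 to 103 in Scn1a+/-. The co-receptor Nrp1 rose by 0.38 ± 0.09 against wild type (edgeR adjusted p = 0.00303). Of the 11 pathway genes, 3 were called higher and 1 lower.

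Cldn5 stood at 32.8, 48.3 and 42.4 CPM in the seizure libraries, at 33.4, 30.6 and 34.7 in wild type and at 33.2 and 37.6 in Scn1a+/-. Replicates 2 and 3 were above the other P24 F1 libraries and replicate 1 lay within the wild-type range. The log2 difference from wild type was 0.32 ± 0.10 (edgeR adjusted p = 0.0205). The call was lost without seizure replicate 2, at 0.19 (edgeR adjusted p = 0.201), wild-type replicate 1 (0.0606) or wild-type replicate 2 (0.131). From Scn1a+/- it was 0.21 ± 0.12 (edgeR adjusted p = 0.249), and 0.34 and called without seizure replicate 1 (edgeR adjusted p = 0.0216).

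Pcdh12 had 15, 40 and 29 counts in the seizure libraries, or 0.674, 2.03 and 1.41 CPM, against 8, 17 and 16 counts in wild type, or 0.356, 0.715 and 0.733 CPM. Seizure replicate 1 lay within the wild-type range. Pcdh12 differed on the log2 scale by 1.16 ± 0.39 (edgeR adjusted p = 0.0292), a call lost without seizure replicate 2, at 0.77 (edgeR adjusted p = 0.223), wild-type replicate 1 (0.155) or wild-type replicate 2 (0.0505). Pecam1, at 14.4, 21.1 and 19 CPM against 15.6, 14.7 and 15.9, differed by 0.24 ± 0.13 (edgeR adjusted p = 0.192), and by 0.37 with a call without seizure replicate 1 (edgeR adjusted p = 0.0312).

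**Figure D4:**
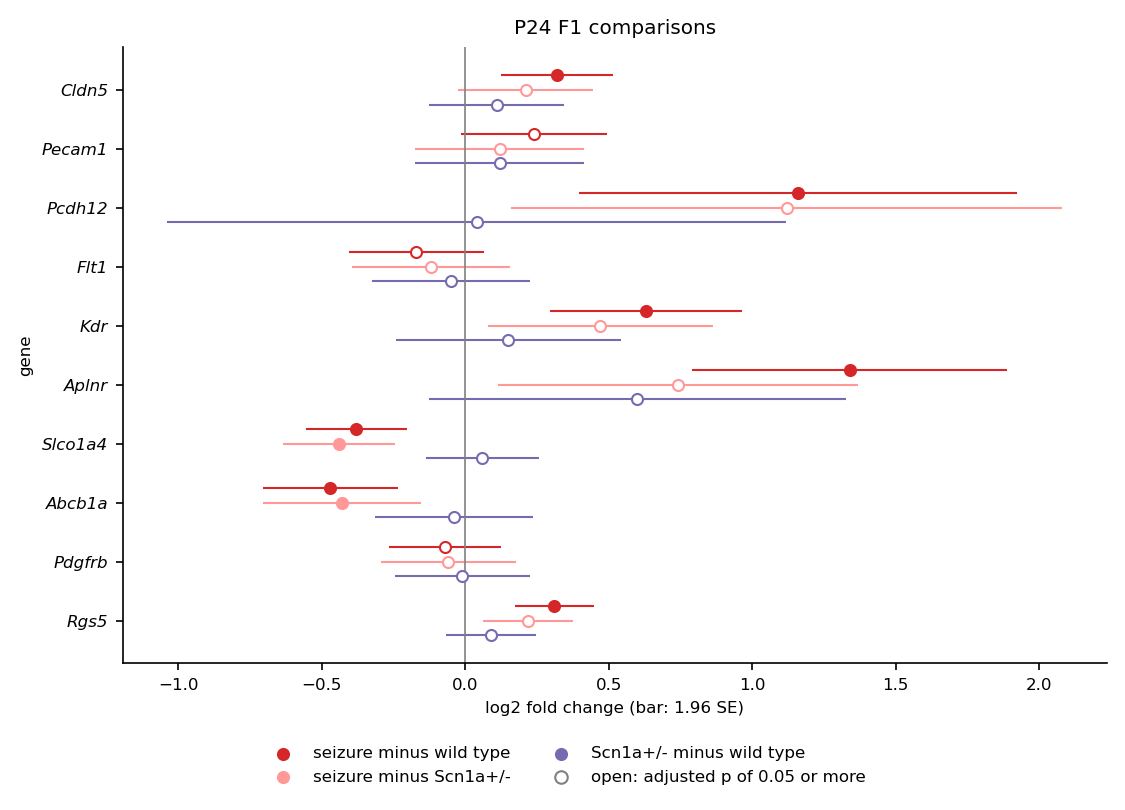
Log2 fold change of each gene in P24 F1 for seizure minus wild type (red), seizure minus Scn1a+/- (pink) and Scn1a+/- minus wild type (purple), with bars for the approximate 95% interval; filled points have an edgeR adjusted p under 0.05. Aplnr is at 1.34 in seizure minus wild type, Slco1a4 and Abcb1a are filled and below 0 in both seizure comparisons, and no purple point is filled.

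The transport genes were lower. Slco1a4 stood at 60.7, 50.4 and 52.2 CPM in the seizure libraries, at 70.7, 64.4 and 77.9 in wild type and at 66.6 and 80.8 in Scn1a+/-. All 3 seizure libraries were below all 5 others. On the log2 scale Slco1a4 differed by -0.38 ± 0.09 from wild type (edgeR adjusted p = 0.00141) and -0.44 ± 0.10 from Scn1a+/- (edgeR adjusted p = 0.00153).

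Abcb1a stood at 14, 16 and 18.4 CPM in the seizure libraries, at 25.8, 22.3 and 19 in wild type and at 21.7 in both Scn1a+/- libraries. It too was lower in all 3 seizure libraries than in all 5 others. The log2 difference was -0.47 ± 0.12 from wild type (edgeR adjusted p = 0.00521) and -0.43 ± 0.14 from Scn1a+/- (edgeR adjusted p = 0.0362). The first call was lost without wild-type replicate 1 (edgeR adjusted p = 0.0522). The near copy Abcb1b was at 0.18 ± 0.18 against wild type (edgeR adjusted p = 0.521).

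Rgs5 stood at 45.8, 50.5 and 42.8 CPM in the seizure libraries, at 37.1, 38.1 and 37 in wild type and at 41.6 and 38.2 in Scn1a+/-. The seizure libraries were above the other P24 F1 libraries. Rgs5 differed on the log2 scale by 0.31 ± 0.07 from wild type (edgeR adjusted p = 0.0013) and 0.22 ± 0.08 from Scn1a+/- (edgeR adjusted p = 0.0618). Pdgfrb, at 20.8, 28.6 and 28 CPM against 27.2, 26.7 and 27.1, differed by -0.07 ± 0.10 (edgeR adjusted p = 0.685), with an approximate 95% interval of -0.27 to 0.13.

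Against Scn1a+/- mice without seizures, the 2 transport genes were the only ones of the 10 called, against 15.7% of all tested genes (8.72% higher and 7% lower). Groups did not overlap for 3 of the 10 (Slco1a4, Abcb1a and Rgs5), against 32% of all tested genes. Both calls were lost with only the libraries of the contrast in the fit (edgeR adjusted p = 0.103 for Slco1a4 and 0.179 for Abcb1a), where calls over all genes went from 2502 to 633. Both were also lost with single libraries left out. Slco1a4 was at -0.30 and not called without Scn1a+/- replicate 2 (edgeR adjusted p = 0.133). Abcb1a was not called without that library (0.156), Scn1a+/- replicate 1 (0.112), seizure replicate 1 (0.111) or seizure replicate 2 (0.0559). Without Scn1a+/- replicate 1, Aplnr was called at 1.33 (edgeR adjusted p = 0.0326), and without seizure replicate 1, Pcdh12 was called at 1.45 (edgeR adjusted p = 0.0274). Rgs5 was called at 0.26 without seizure replicate 3 (edgeR adjusted p = 0.023). The comparisons with wild type and with Scn1a+/- share the seizure libraries.

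Among the other vessel genes, the share called in seizure minus wild type was below or near the 22.5% of all tested genes for the endothelial identity, junction and pericyte lists. Of 31 endothelial identity genes, 4 were called higher and 2 lower. Ctla2a, a protease inhibitor gene of endothelium, rose by 2.06 ± 0.17 (edgeR adjusted p = 9.35e-11) and Cd93 by 0.94 ± 0.18 (edgeR adjusted p = 0.000174), while Cd34 fell by 0.71 ± 0.08 (edgeR adjusted p = 3.68e-08). Of 15 junction genes, 1 was called higher and 2 lower: Cav1, the caveolae gene, which astrocytes also express, rose by 1.73 ± 0.10 (edgeR adjusted p = 4.05e-14), and Plvap and Ocln fell by 0.46 ± 0.14 and 0.32 ± 0.10 (edgeR adjusted p = 0.0185 and 0.0204). Of 21 transporters, 5 were called higher and 5 lower, among them Slc16a1 at 0.46 ± 0.08 (edgeR adjusted p = 6.55e-05) and Atp10a at -0.74 ± 0.11 (edgeR adjusted p = 9.62e-06).

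Of 16 tip cell genes, 8 were called higher and 2 lower, with a median of 0.44. Apln, which is also on this list, was one of those called lower (-0.37 ± 0.10, edgeR adjusted p = 0.00457). Vim, a filament gene that astrocytes also express, rose by 2.12 ± 0.08 (edgeR adjusted p = 5.65e-19). Col4a1 and Col4a2, the collagen IV chains of the basement membrane, rose by 0.62 ± 0.08 (edgeR adjusted p = 1.06e-06) and 0.52 ± 0.08 (edgeR adjusted p = 4.87e-06). Of 15 activation genes, 6 were called higher and 3 lower. The adhesion molecule Vcam1 rose by 0.60 ± 0.08 (edgeR adjusted p = 1.52e-06). Of 22 pericyte genes, 2 were called higher and 3 lower. Those called higher were Rgs4, at 1.62 ± 0.09 (edgeR adjusted p = 2.23e-14), a gene that neurons also express, and Notch3, at 0.39 ± 0.13 (edgeR adjusted p = 0.0247). Among those called lower were Slc6a20a, at -0.84 ± 0.13 (edgeR adjusted p = 1.26e-05), and Atp13a5, at -0.36 ± 0.10 (edgeR adjusted p = 0.0102). The median of the pericyte list was -0.05.

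Markers of other cells moved in the same libraries. Of 14 astrocyte genes, 5 were called higher and 5 lower, with a summed level of 9830 to 11000 CPM in the seizure libraries and 8380 to 9030 in wild type. Gfap, the astrocyte filament gene, rose by 2.31 ± 0.10 (edgeR adjusted p = 5.24e-17) and the endfoot water channel gene Aqp4 by 0.98 ± 0.07 (edgeR adjusted p = 8.13e-12). Of 10 oligodendrocyte genes, 6 were called lower, at 10200 to 16100 CPM against 14100 to 16200. Choroid plexus markers stood at 673 to 1340 CPM against 977 to 1070, with 1 of 14 called in each direction, and leptomeningeal markers at 227 to 274 against 284 to 293, with 2 of 15 called higher and 5 lower. Perivascular macrophage markers stood at 30.5 to 34.4 CPM against 29.4 to 34.6, with 0 of 7 called by edgeR. Of the 12 cell cycle genes, 4 were called higher. The part of these transcripts in the vessel genes' differences was not tested.

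The age change in 129S6 and the seizure difference from wild type in F1 share no library, so their directions can be set side by side. They were opposite in 9 of the 10 genes, with Pdgfrb the exception, and in all 7 genes called in both. Neither Flt1 nor Pdgfrb was called after seizures, and without seizure replicate 1 their differences from wild type changed sign, to 0.02 and 0.06. Over all tested genes, directions were opposite in 9442 of 15912 (59.3%), and in 1289 of the 1723 called in both (74.8%). The 10 genes were chosen with earlier results of these data known, so their share beside these is a description with no test. The 5 genes higher after seizures had all fallen with age, and the 2 lower ones had risen. Aplnr was at 1.34 after seizures beside -3.49 with age, and its seizure libraries, at 1.84 to 2.58 CPM, stayed below the lowest P14 library of F1 at 6.19 CPM.

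**Figure D5:**
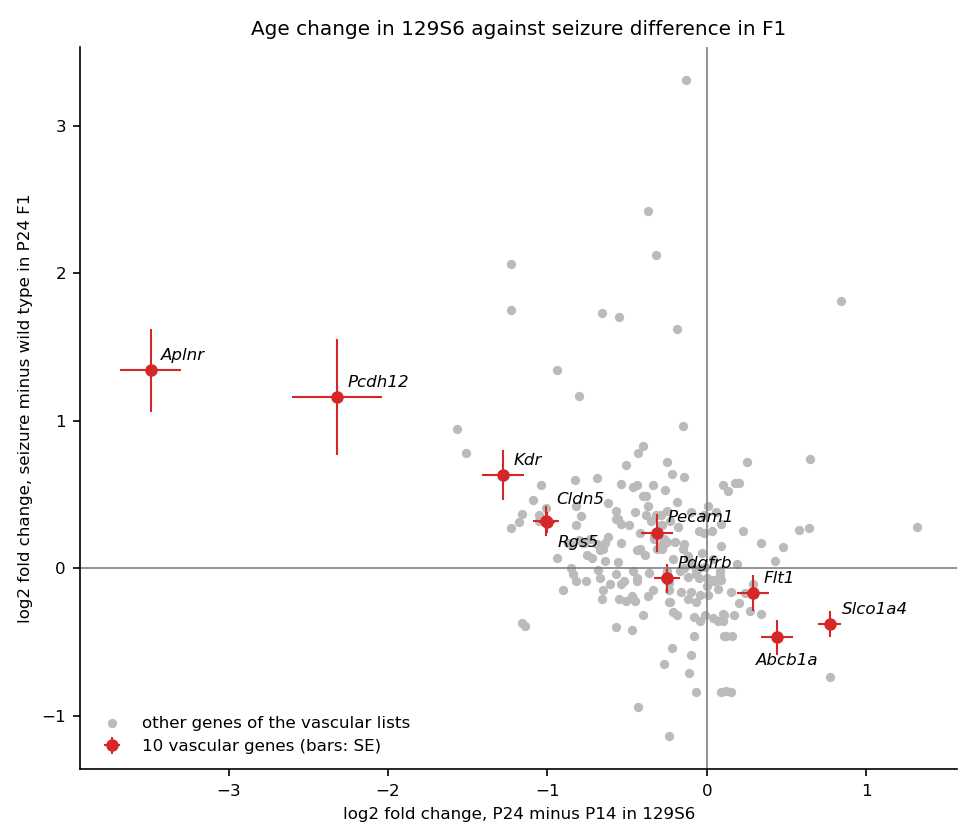
Log2 fold change with age in 129S6 (horizontal) against seizure minus wild type in P24 F1 (vertical) for the 10 genes (red, bars are SE) and the other tested genes of the vascular lists (grey). The red points run from Aplnr at the upper left to Slco1a4 at the lower right, and Pdgfrb is the one red point in a quadrant of equal signs.

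Per kilobase of exon, Cldn5 was the most abundant of the 10 in wild-type F1 at both ages, at 47.3 ± 1.79 CPM per kilobase (SD, n = 3) at P14 and 23.3 ± 1.48 at P24. At P14 Rgs5 came next, at 12.4 ± 0.108, then Slco1a4 at 5.22 ± 0.567. At P24 Slco1a4, at 8.33 ± 0.791, stood above Rgs5, at 6.08 ± 0.0991. In the seizure libraries Rgs5, at 7.54 ± 0.628, and Slco1a4, at 6.39 ± 0.646, differed by less than the sum of their SDs. Lower in the order at P24, Abcb1a (3.63 ± 0.55) and Pdgfrb (3.34 ± 0.0361) did not differ beyond their spread, while Aplnr (0.227 ± 0.0181) and Pcdh12 (0.0993 ± 0.0351) were last.

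The genes whose pattern was most like the mean of the 8 endothelial genes, by root mean square distance of centred log2 CPM over the 9 group means, were Kif21b (0.059), Fnbp1l (0.064), Kctd5 (0.064), Ets1 (0.067) and Spef1 (0.067), where the mean profile spanned 0.89. That mean averages genes that fell and genes that rose with age, so it need not follow any one of them. None of its nearest genes is on a gene list used here. For the mean of the 2 pericyte genes, which spanned 0.82, they were Ctnnbip1 (0.049), Esam (0.055), Sdc3 (0.056), Eng (0.058) and Sh3rf3 (0.062). Esam and Eng are themselves on the endothelial list.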

How the data were processed

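Total RNA from pooled hippocampi was prepared with TRIzol and made into libraries with the TruSeq RNA kit v2, per the labels' protocols. The authors deposited whole-number counts per gene symbol for each library. CASAVA, TopHat2 2.1.0, HTSeq 0.6.1p1 and the mm10 build are named, with no role or order, per the submitters' processing notes. The gene annotation and the strand setting are unstated in these sources, and the kit does not mark strand. A normalized table was not used.

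Counts were analysed in R 4.3.3 with edgeR 4.0.16. Genes were kept by filterByExpr (minimum count 10), scaled by TMM and fitted with 1 coefficient for each of the 9 groups in 1 quasi-likelihood model (16 residual degrees of freedom, biological coefficient of variation 7.57%). Adjusted p-values are Benjamini-Hochberg over all 15912 genes, and a gene was called under 0.05. Fold changes carry the SE that the F statistic implies, and intervals are approximate 95%. CPM used TMM-scaled totals. Per-kilobase levels used exonic lengths from GENCODE vM39. The pipeline was tested on simulated counts that gave every group the same spread, so that test does not cover the larger spread of the seizure libraries.

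The 10 genes and all lists were chosen with earlier results of these data known. From each list the text names up to 4 called genes with the smallest adjusted p in a comparison, and values of those genes in other comparisons. The most similar genes are the 5 nearest whose log2 CPM averages 1 or more. Alternatives were other scalings (relative log expression, upper quartile), filters, DESeq2 1.42.0, fits with fewer libraries and leaving out each library.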

Additional observations from a re-analysis of the deposited data

How the results depend on the processing

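Of the 1740 log2 fold changes of the 10 genes recomputed over the 11 comparisons, 71 changed sign, all from values of at most 0.30 in size, and 0 of these were called before or after. Of 990 values with 1 library left out, 959 kept their side of the threshold, 25 lost the call and 6 gained one; of 750 under other settings, 743 kept it, 6 lost it and 1 gained one. With only the libraries of the contrast in the fit, the calls among the 10 genes went from 7 to 3 for seizure minus wild type and from 2 to 0 for seizure minus Scn1a+/-, and calls over all genes from 3579 to 1615 and from 2502 to 633. Aplnr (edgeR adjusted p = 0.00677), Slco1a4 (0.0402) and Rgs5 (0.0461) kept their calls against wild type in that fit, and also with each library left out. Leaving out 1 library gave 4 to 8 calls for seizure minus wild type, 0 to 4 for seizure minus Scn1a+/- and 0 to 1 for F1 minus 129S6 at P24. It gave 9 to 10 for age in 129S6 and 8 to 9 in F1. With no filter on low counts, seizure minus Scn1a+/- gave 3 calls. Where 1 library of a pair was left out, the other was assumed to vary like the other groups. The ratio of Slco1a4 to Cldn5 after seizures differed from wild type by -0.69 on the log2 scale, and by -0.92 without seizure replicate 1, an alternative chosen after seeing the data. That replicate, at 1.85, was the nearest to wild type (2.1 to 2.24), beside 1.04 in replicate 2 and 1.23 in replicate 3. Leaving out replicate 2 or 3 instead makes the difference smaller. The causes were not tested. Depth limits Pcdh12, with 8 to 40 counts in the P24 F1 wild-type and seizure libraries. It also limits Aplnr, with 18 to 20 counts in that wild type and 39 to 53 in the seizure libraries. No paired analysis was possible because the numbers in the titles run through the whole series and pair no libraries.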
